A study of Caenorhabditis elegans with 8 samples.

Results

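The histone genes of *Caenorhabditis elegans* were examined in RNA from whole worms given the neuromuscular blocker atracurium or its water vehicle. Members were all genes in the deposited table with a symbol starting with *his-* or *hil-*, together with *htz-1*, *hcp-3* and *cpar-1*, and 49 of the 17521 genes in the table met this rule. They comprised 7 H2A, 6 H2B, 10 H3 and 9 H4 genes, 4 H3.3 or H3.3-like genes, the H2A.Z gene, 2 centromeric H3 genes, 9 linker H1 genes, and *his-73*, which the table describes only as a histone. The Ensembl release 115 annotation of WBcel235 lists 83 histone genes under the same symbols, and the other 34 are absent from the deposited table. Class counts, medians and levels below therefore cover only the histone genes that the table holds.

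All worms were of the N2 strain, the wild-type laboratory strain, and were age-synchronized and placed on treatment plates at the last larval stage, L4. The atracurium group received 50 μM atracurium and the control group received water. In the lifespan and mobility assays of the paper the plates also held 5-fluorouracil, a drug that blocks thymidylate synthesis and is used to stop progeny from developing. The RNA methods refer back to the earlier treatment description and do not say whether the plates for RNA held this drug. Each group had 4 samples of about 1000 worms, collected after 24 h at day 1 of adulthood. Messenger RNA was isolated with oligo-dT beads, so the libraries measured polyadenylated RNA.

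Nucleosomes wrap DNA around an octamer of the core histones H2A, H2B, H3 and H4, and linker histone H1 binds the DNA between them. In animals, replication-dependent core histone genes lie in clusters, lack introns, and make mRNAs that end in a stem-loop instead of a poly(A) tail during S phase, while variant histone genes usually have introns, make polyadenylated mRNAs and are expressed outside S phase. H3.3 and H2A.Z replace canonical H3 and H2A at active or regulatory chromatin, and the CENP-A type H3 marks centromeres, which in *C. elegans* extend along the whole chromosome.

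The values were log2 CPM, counts scaled to library size on the log2 scale, and whole reads were recovered from them. Between 27922986 and 60015200 reads per sample fell on the table's genes, the highest number in water vehicle replicate 2, and 3 reads, taken as the limit for a gene without reads, corresponded to 0.0487 to 0.107 CPM. Atracurium replicate 2 stood apart in that short genes were low in it, and atracurium replicates 2 and 4 had the lowest estimated sample weights, 0.342 and 0.507. Over all 17521 genes, 31 passed an adjusted p of 0.05 (0.177%), with limma-trend on the log2 CPM and Benjamini-Hochberg adjustment. Because whole worms were measured, fewer cells of a type and less RNA per cell cannot be told apart.

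Levels of the histone genes differed with their gene structure. The 30 single-exon members, none of which has an annotated 3′ UTR, had a median level of 2.27 CPM per kilobase of exon (range 0.25 to 43.8), whereas the 19 members with an intron, all with an annotated 3′ UTR, had a median of 90.2 CPM per kilobase (0.933 to 699). The highest member was *htz-1*, which encodes H2A.Z, at 699 CPM per kilobase, followed by the linker gene *hil-4* at 397, the H3.3 gene *his-72* at 359 and the linker gene *hil-5* at 334 CPM per kilobase. Among single-exon members the highest was the H2A gene *his-68*, at 43.8 CPM per kilobase. All 28 single-exon core histone genes together summed to 57.8 to 66.1 CPM in the water vehicle samples, less than *htz-1* alone, at 487 to 533 CPM. The 4 core genes with an intron were at different levels within their classes. The H4 gene *his-37* reached 93.1 CPM per kilobase and the other 8 H4 genes at most 18.4, and *his-35* was the highest H2A gene at 90.2 CPM per kilobase. The H2B gene *his-41*, at 12.9, was little above the single-exon *his-62*, at 10.5 CPM per kilobase. The H2A gene *his-57*, singled out after its values were seen, was the lowest member of its class at 0.933 CPM per kilobase.

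**Figure D1:**
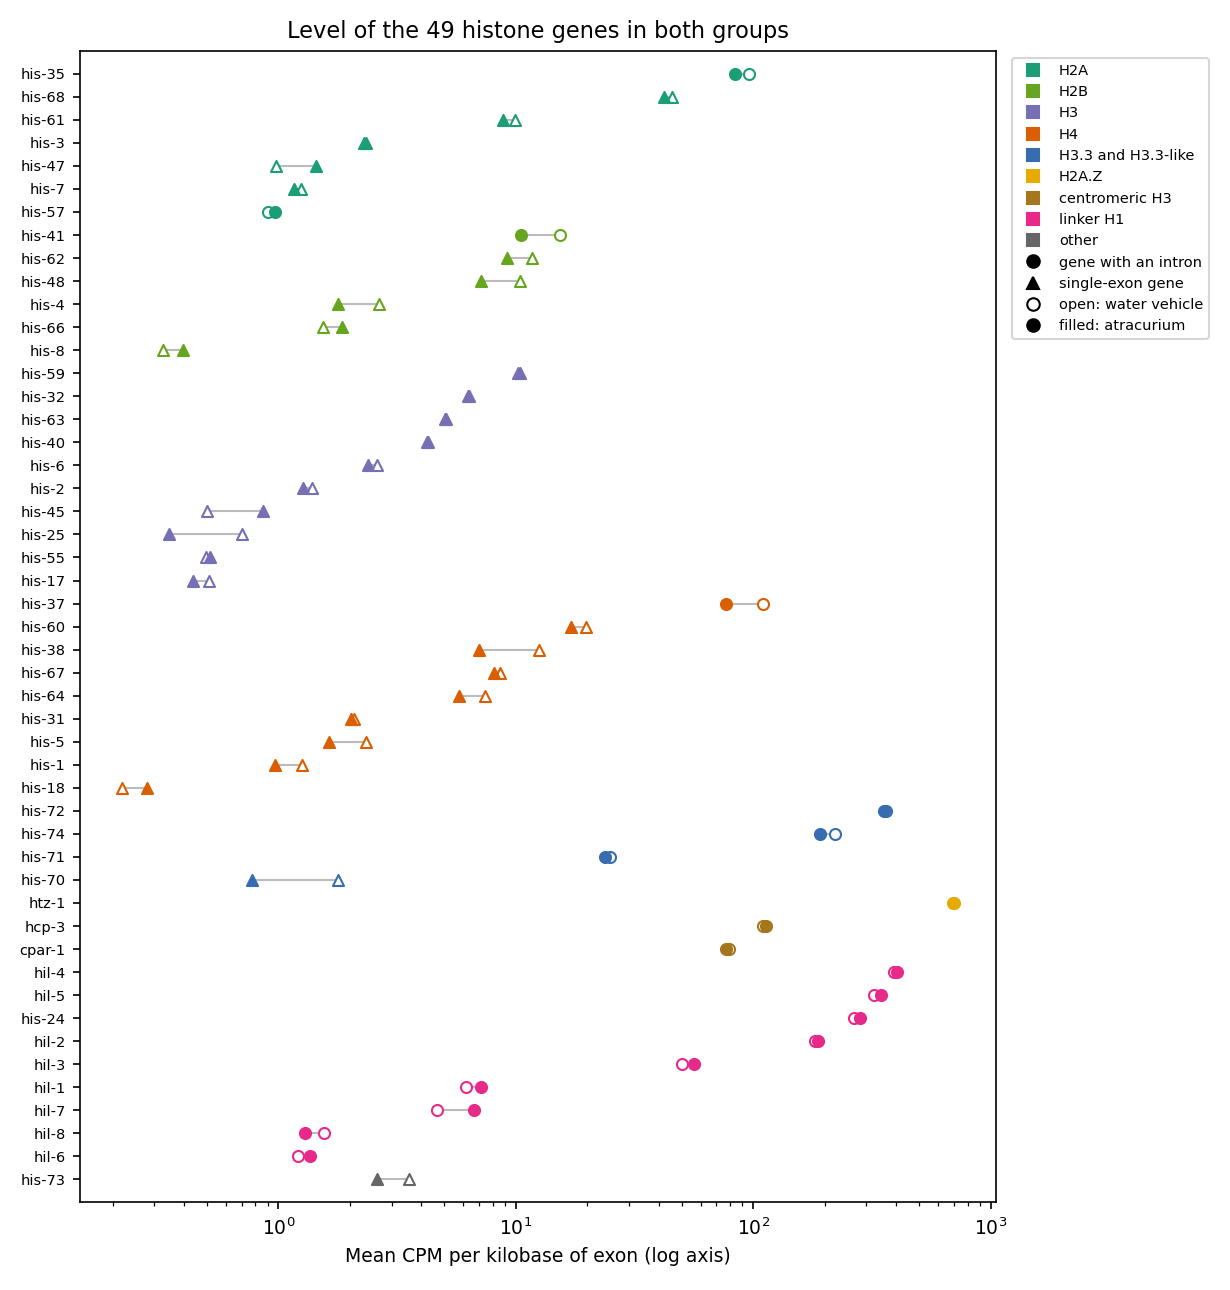
Mean level of each of the 49 histone genes in CPM per kilobase of exon (log axis), with open symbols for the 4 water vehicle samples and filled symbols for the 4 atracurium samples, triangles for single-exon genes and circles for genes with an intron. Genes with an intron reach 699 CPM per kilobase (*htz-1*), and single-exon genes reach 43.8 (*his-68*).

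Counts behind most of the single-exon genes were small. In total 21 members had fewer than 100 reads in every sample, 19 of them single-exon genes and the others *his-57* and *hil-6*, 3 of the 21 had no reads in at least one sample, and 10 members had more than 1000 reads in every sample. Many of these genes also encode the same protein. By the deposited UniProt entries, 9 H3 genes share 1 entry, 9 H4 genes share another, 6 H2A genes share a further one, and the H2B genes fall into groups of 3 and 2 genes with shared entries. The authors' counting, with default settings, leaves out reads that align to several places, so the values of such copies are uncertain. With oligo-dT selection as well, the levels describe only the polyadenylated, uniquely aligned RNA of these genes. Another annotated gene on the same strand overlaps 4 members: *his-41*, *his-73*, *his-72* (a snoRNA gene) and *hil-2* (a microRNA gene). On the opposite strand 6 members have an overlap, among them *his-37*, *hcp-3* and *his-24*. *his-70* and *his-38* overlap none.

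The first question was whether the 24 h treatment changed any histone gene. None of the 49 members passed an adjusted p of 0.05 with limma-trend, against 0.177% of all genes, and none passed it with limma-voom or under any of the other alternatives, in which the smallest adjusted p of a member was 0.0910. At an unadjusted p of 0.05, 4 members passed, against 11.5% of all genes, and all 4 were lower with atracurium: *his-70* (H3.3-like), *his-38* and *his-37* (H4) and *his-41* (H2B). At an unadjusted p of 0.01, 2 members were lower, *his-70* and *his-38*, against 1.87% of all genes, and 0 were higher, against 1.2%. The groups did not overlap for 1 member, *his-70*, against 7.16% of all genes. As shares of the members these counts were 8.16% at an unadjusted p of 0.05 and 2.04% for groups apart, both below the share of all genes. For lower members at an unadjusted p of 0.01 the share was 4.08%, which was above that of all genes and rested on 2 genes. Both are short, *his-38* with 312 nt of exon and *his-70* with 405 nt. Among the 778 genes of 300 to 450 nt, 50 were lower and 0 higher at that p, and the groups lay apart on the lower side for 83.

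By direction, 34 members were lower and 15 higher with atracurium. Their log2 fold changes had a median of −0.10, beside −0.01 over all genes. With every sample set to a common median the split was 27 lower and 22 higher, and with quantile normalization it was 28 and 21. Atracurium replicate 2 carried much of the difference: without it 25 members were lower and 24 higher, and the median was −0.02. The count of 2 members at an unadjusted p of 0.01 became 1 without any single water vehicle replicate (1.75% to 2.64% of all genes) or without atracurium replicate 1 (2.40%), and 3 without atracurium replicate 4 (5.04%), beside 3.07% of all genes with every sample. The count of 1 member with groups apart became 8 without water vehicle replicate 1 (11.3% of all genes), 3 without water vehicle replicate 3 (9.38%), 2 without atracurium replicate 1 (10.2%), 6 without atracurium replicate 3 (11.4%) and 4 without atracurium replicate 4 (16.2%).

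**Figure D2:**
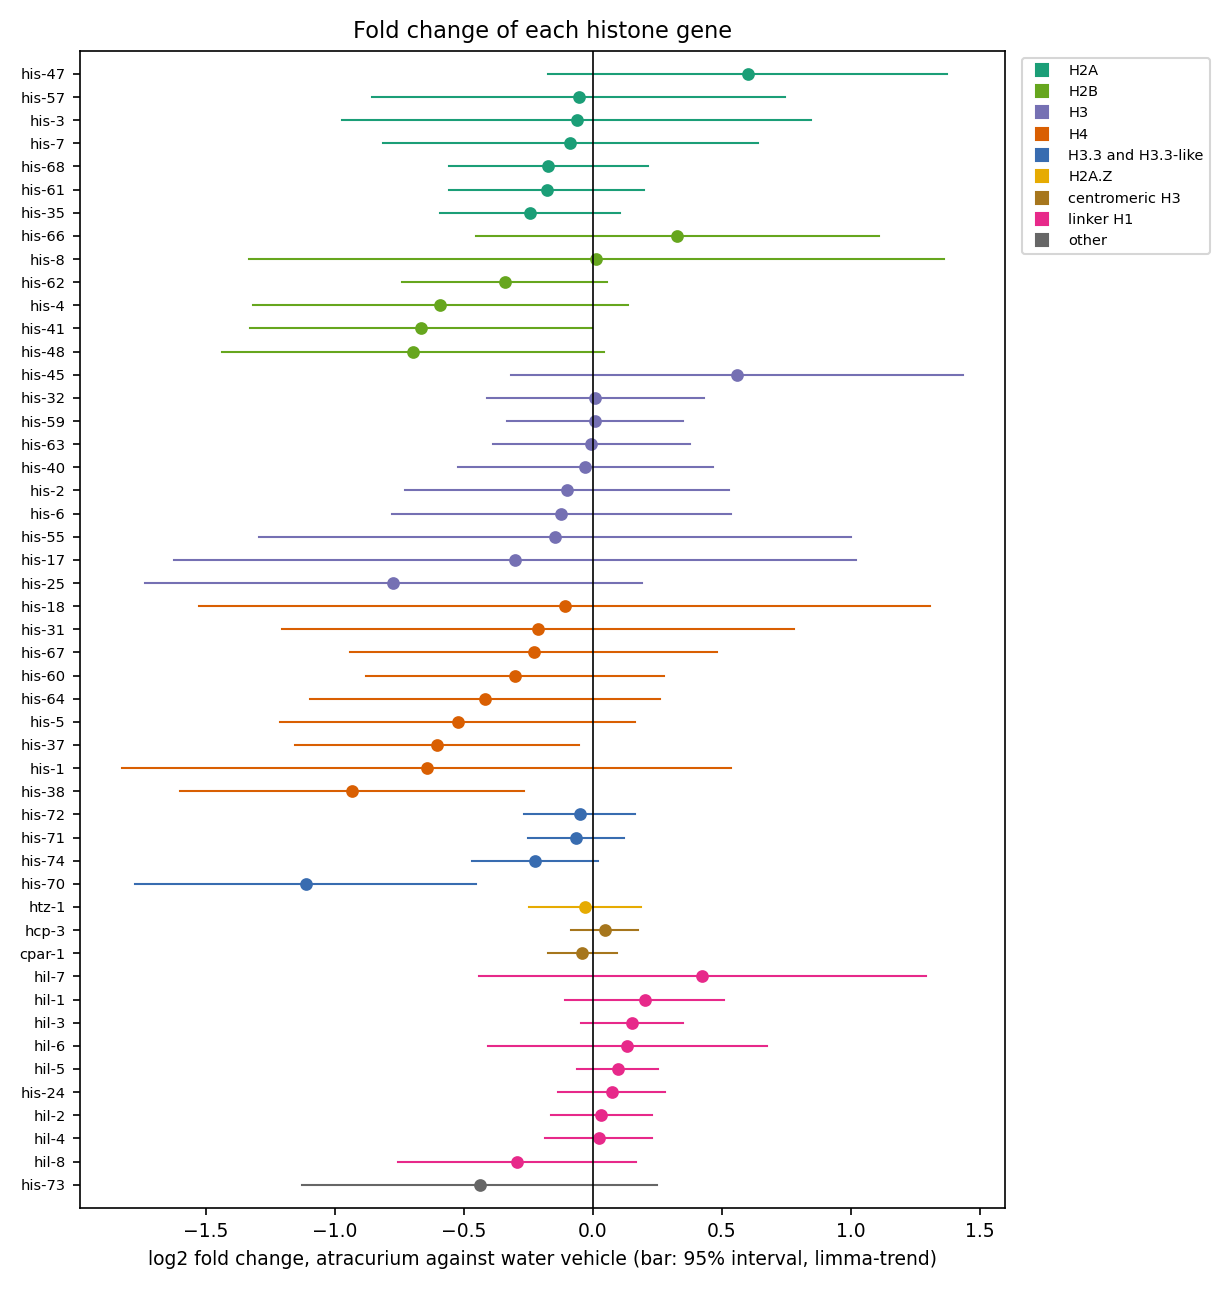
Log2 fold change of each histone gene, atracurium against water vehicle (4 samples each), with 95% intervals from limma-trend, sorted within each class. All 9 H4 and all 4 H3.3-type values lie below 0, 8 of 9 linker H1 values lie above 0, and the intervals of only *his-70*, *his-38*, *his-37* and *his-41* exclude 0. With a common median for every sample 1 H3.3-type value lies above 0, and with quantile normalization 1 H4 value lies above 0 and 3 linker H1 values lie below it.

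H4, which pairs with H3 in the centre of the nucleosome, was the only core class in which every gene had a lower mean with atracurium. All 9 H4 genes were on that side (8 of 9 with quantile normalization). The median log2 fold change was −0.42. At an unadjusted p of 0.01, 1 of the 9 was lower, against 1.87% of all genes and 50 of the 778 genes of 300 to 450 nt. Much of the split and the median came from 1 sample. Without atracurium replicate 2, 5 H4 genes were lower and 4 higher, and the median was −0.07. Relative to each gene's water vehicle mean, the H4 median was −0.23, −0.16 and −0.18 in atracurium replicates 1, 3 and 4. In the water vehicle samples it was −0.13 to 0.18. The summed level of the 9 genes was 54.2, 75.8, 62.1 and 63.8 CPM in water vehicle replicates 1 to 4 and 48.5, 21.2, 56.7 and 58.6 CPM in atracurium replicates 1 to 4. Atracurium replicate 2 was far below every other sample. Atracurium replicate 1, at 48.5 CPM, also lay below the water vehicle range, and atracurium replicates 3 and 4 lay within it. Most of this sum came from *his-37*.

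The H4 gene *his-38* (WBGene00001912, chromosome X, 7309564 to 7309875, minus strand, single exon) had the strongest difference of the class. Its log2 CPM was 2.05, 2.05, 1.58 and 2.21 in water vehicle replicates 1 to 4 (138, 251, 82 and 133 reads) and 1.02, 0.01, 1.59 and 1.54 in atracurium replicates 1 to 4 (69, 32, 92 and 92 reads). Water vehicle replicate 3 lay among the atracurium samples, so the groups overlapped, and atracurium replicate 2 was the lowest of all. The log2 fold change was −0.93 (SE 0.31, unadjusted p 0.00991, adjusted p 0.324 in limma-trend). Over the 20 alternatives the fold change ran from −1.12 to −0.46 and the unadjusted p from 0.00455 to 0.0323, and without atracurium replicate 2 the fold change was −0.59 with an unadjusted p of 0.00819.

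The intron-containing *his-37*, the most abundant H4 gene, also had its lowest value in atracurium replicate 2. Its log2 CPM was 5.28, 5.86, 5.51 and 5.51 in the water vehicle samples and 5.11, 3.95, 5.38 and 5.32 in the atracurium samples. Only atracurium replicate 2 was far from the rest, with 519 reads against 1210 to 1296 in the other atracurium samples. The log2 fold change was −0.60 (SE 0.25, unadjusted p 0.0340, adjusted p 0.403 in limma-trend), and −0.27 without that replicate (unadjusted p 0.0171). The second most abundant H4 gene, *his-60*, had a fold change of −0.30 (SE 0.27), which became 0.02 without the same replicate. The H4 gene nearest 0 was *his-18*, at −0.11 (SE 0.65), with 0 to 10 reads in every sample.

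H3 genes, which encode the canonical H3 and lie beside H4 genes in the clusters, stayed near the level of the controls. Of the 10 genes 7 were lower and 3 higher (5 and 5 with a common median, 3 lower and 7 higher with quantile normalization), with a median of −0.07, and none passed an unadjusted p of 0.05. The most abundant ones, *his-59* and *his-32*, both had a log2 fold change of 0.01 (SE 0.16 and 0.19), with 95% intervals of −0.33 to 0.35 and −0.41 to 0.43. The extremes, *his-45* at 0.56 (SE 0.40) and *his-25* at −0.77 (SE 0.44), had at most 27 reads in any sample. The summed H3 level was 11.8 to 14.2 CPM in the water vehicle samples and 12.3 to 14.1 CPM in the atracurium samples, so the ranges overlapped almost completely, atracurium replicate 2 included.

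H2A and H2B form the dimers on the outer faces of the nucleosome. Of 7 H2A genes 6 were lower and 1 higher, with a median of −0.09 (4 lower and 3 higher with a common median, and 3 lower and 4 higher with quantile normalization, median 0.04). None passed an unadjusted p of 0.05. The most abundant H2A genes, *his-35* and *his-68*, had log2 fold changes of −0.24 (SE 0.16) and −0.17 (SE 0.18). The 1 higher gene, *his-47*, at 0.60 (SE 0.36), had 6 to 21 reads a sample.

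Of 6 H2B genes 4 were lower and 2 higher, with a median of −0.47, and the median was −0.25 without atracurium replicate 2. The intron-containing *his-41* passed an unadjusted p of 0.05. Its log2 CPM was 2.89, 2.93, 2.72 and 3.35 in the water vehicle samples and 2.46, 1.21, 2.48 and 3.07 in the atracurium samples. Atracurium replicate 4 lay within the water vehicle range and atracurium replicate 2 was the lowest. The log2 fold change was −0.67 (SE 0.31, unadjusted p 0.0492, adjusted p 0.433 in limma-trend), −0.30 without atracurium replicate 2 (unadjusted p 0.0891) and −0.92 without atracurium replicate 4 (unadjusted p 0.00705). The single-exon H2B gene *his-48* had log2 CPM of 1.77 to 2.12 in the water vehicle samples and of 1.64, −0.04, 1.92 and 1.58 in the atracurium samples. Its fold change of −0.70 (SE 0.34) became −0.26 without atracurium replicate 2. The fold change of *his-62* was −0.34 (SE 0.18), and *his-66*, the highest of the class, stood at 0.33 (SE 0.36).

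Among the H3.3-type genes the largest difference of all members was found in *his-70* (WBGene00001944, chromosome III, 4059715 to 4060119, minus strand), the single-exon H3.3-like gene. Its log2 CPM was −0.38, −0.47, −0.25 and −0.36 in water vehicle replicates 1 to 4 (24, 41, 22 and 21 reads) and −1.67, −1.92, −0.98 and −1.33 in atracurium replicates 1 to 4 (9, 7, 14 and 11 reads). Every atracurium sample lay below every water vehicle sample. The log2 fold change was −1.11 (SE 0.31, unadjusted p 0.00313, adjusted p 0.261 in limma-trend), so the difference did not pass the threshold over all genes. On the reads themselves the ratio of atracurium to water vehicle was 0.438, with a 95% exact binomial interval of 0.298 to 0.633 that covers counting error only.

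The direction of *his-70* was the same in the 19 alternatives that included it, and its unadjusted p was under 0.01 in 16 of them. Its log2 fold change ran from −1.28 to −0.70 and the unadjusted p from 0.000588 to 0.0436, the highest p arising when the trend with gene length was removed. Without atracurium replicate 2 the fold change was −0.97 (unadjusted p 0.00988), and without water vehicle replicate 3 the unadjusted p was 0.0110. With group means of 1.78 CPM per kilobase in water vehicle and 0.775 in atracurium it was the lowest of the H3.3-type genes, and a stricter filter on low values removed it.

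The other H3.3-type genes have introns and much higher levels, and their fold changes were nearer 0 than that of *his-70*. The level of *his-72* was 7.78, 7.82, 7.89 and 7.95 log2 CPM in the water vehicle samples and 7.86, 7.46, 7.91 and 8.0 in the atracurium samples, so all but atracurium replicate 2 lay together. Its log2 fold change was −0.05 (95% interval −0.27 to 0.16). The second H3.3 gene, *his-71*, had a log2 fold change of −0.07 (−0.25 to 0.12), and *his-74*, another H3.3-type gene, had −0.23 (−0.47 to 0.02). With a common median *his-72* was at 0.01, and without atracurium replicate 2 it was at 0.07 and *his-74* at −0.09. The unadjusted p of *his-74* was 0.0674 in limma-trend. It was under 0.05 with quantile normalization, sample weights, the replicate block and without atracurium replicate 4, lower each time, and in no other alternative. With the length trend removed, *his-72* was higher and its groups did not overlap. The difference between *his-70* and the other H3.3-type genes was not tested.

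**Figure D3:**
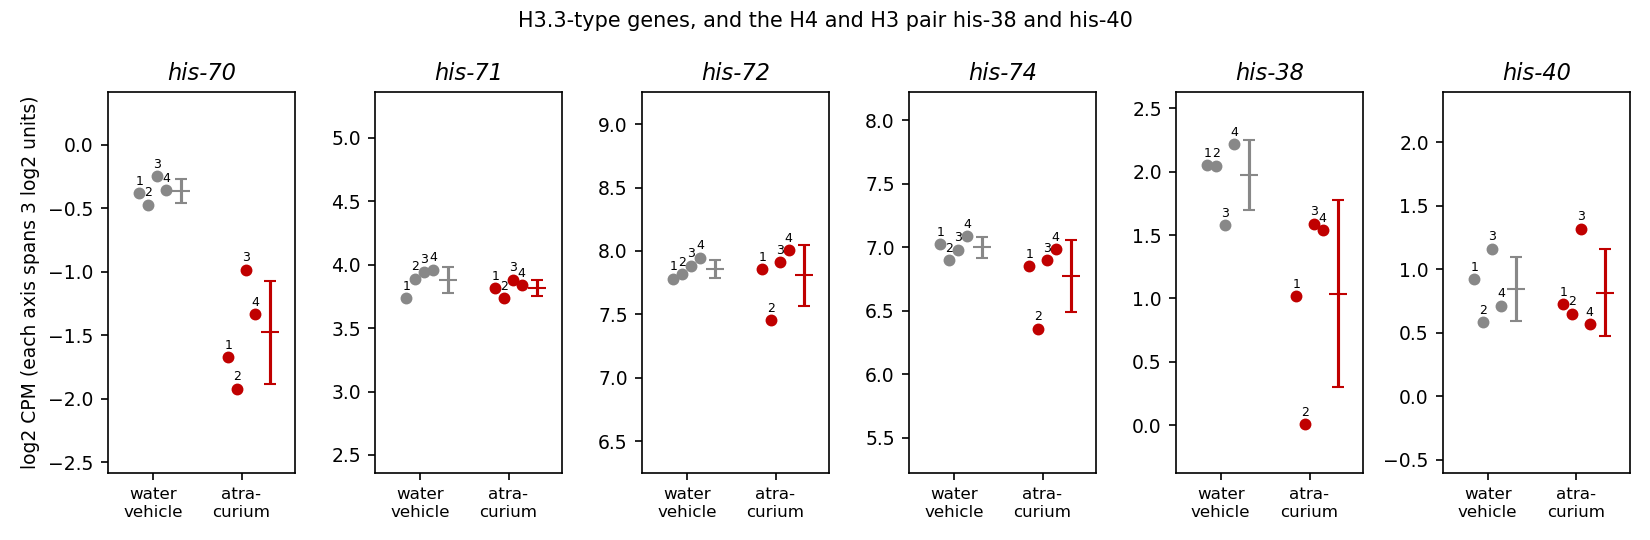
Log2 CPM in each sample (grey, water vehicle; red, atracurium; numbers are replicates; bars, mean ± SD of 4 samples) for the 4 H3.3-type genes and the neighbouring H4 and H3 genes *his-38* and *his-40*, every axis spanning the same range. Only for *his-70* do all atracurium points, −1.92 to −0.98, lie below all water vehicle points, −0.47 to −0.25, and atracurium replicate 2 is lowest for *his-38* and all 4 H3.3-type genes, in *his-71* level with water vehicle replicate 1 (both 3.74).

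The H2A.Z gene *htz-1* (WBGene00019947, chromosome IV, 4446216 to 4446999, plus strand, 2 exons) was the best measured member, with 13863 to 30023 reads a sample. Its log2 CPM was 9.05, 8.93, 9.01 and 9.06 in the water vehicle samples and 8.94, 8.68, 9.0 and 9.29 in the atracurium samples. Atracurium replicate 2 was the lowest and atracurium replicate 4 the highest of all 8, and the water vehicle samples lay between them. The log2 fold change was −0.03 (SE 0.10, 95% interval −0.25 to 0.19).

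The centromeric H3 genes varied least. The CENP-A gene *hcp-3* had a log2 fold change of 0.05 (95% interval −0.08 to 0.18) and its paralog *cpar-1* had −0.04 (−0.17 to 0.09), with SDs of 0.04 to 0.09 on the log2 scale within groups of 4 samples. Their summed level was 175 to 189 CPM in the water vehicle samples and 173 to 194 CPM in the atracurium samples, so the groups overlapped. With a common median for every sample both fold changes were above 0.

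Linker histone H1 genes, which encode the proteins that bind between nucleosomes, were the class with mostly higher values. Of 9 genes 8 were higher and 1 lower with atracurium (6 and 3 with quantile normalization). The median over the class was 0.10 on the log2 scale, and none passed an unadjusted p of 0.05. The 4 most abundant were *hil-4* at 0.02 (SE 0.10), *hil-5* at 0.10 (SE 0.07), *his-24*, the H1 gene required for silencing in the germ line, at 0.07 (SE 0.10), and *hil-2* at 0.03 (SE 0.09). *hil-3* stood at 0.15 (SE 0.09), *hil-1* at 0.20 (SE 0.14) and *hil-6* at 0.13 (SE 0.25). The widest spread was in *hil-7*, at 0.42 (SE 0.40), with log2 CPM of 0.67, 1.53, 1.07 and 2.13 in the water vehicle samples and 1.45, 0.68, 2.50 and 2.46 in the atracurium samples. Its groups overlapped, each having low and high samples. The 1 lower gene was *hil-8*, at −0.29 (SE 0.21).

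The summed level of the linker H1 genes was 1152, 1034, 1123 and 1061 CPM in water vehicle replicates 1 to 4 and 1165, 1005, 1061 and 1355 CPM in atracurium replicates 1 to 4. Only atracurium replicate 4 was clearly above the water vehicle range. Without atracurium replicates 2 and 4, 5 of the 9 genes were higher and 4 lower, and the median was 0.02. The unclassified *his-73*, a single-exon gene of 141 nt that overlaps another gene on the same strand, had 7 to 26 reads a sample and a log2 fold change of −0.44 (SE 0.32).

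The classes differed most within atracurium replicate 2. It was the lowest of the 8 samples for 25 of the 49 members (51%), against 24.5% of all genes. By class it was the lowest for 8 of 9 H4 genes (88.9%), all 4 H3.3-type genes, 4 of 6 H2B genes (66.7%) and 4 of 7 H2A genes (57.1%), but for 1 of 10 H3 genes (10%) and 1 of 9 linker H1 genes (11.1%). Relative to the water vehicle mean, its class medians were −1.38 for H4, −1.05 for H2B, −0.53 for H2A, −0.52 for the H3.3 type, 0.02 for H3 and −0.04 for linker H1 on the log2 scale. In the other 3 atracurium samples the H4 median lay between −0.23 and −0.16 and the H2B median between −0.37 and −0.08, and water vehicle replicate 1 was at −0.13 for H4 and −0.42 for H2B. The total over all members was 2237 to 2389 CPM in the water vehicle samples and 2349, 1945, 2277 and 2746 CPM in atracurium replicates 1 to 4, so atracurium replicates 2 and 4 lay outside the water vehicle range on opposite sides.

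**Figure D4:**
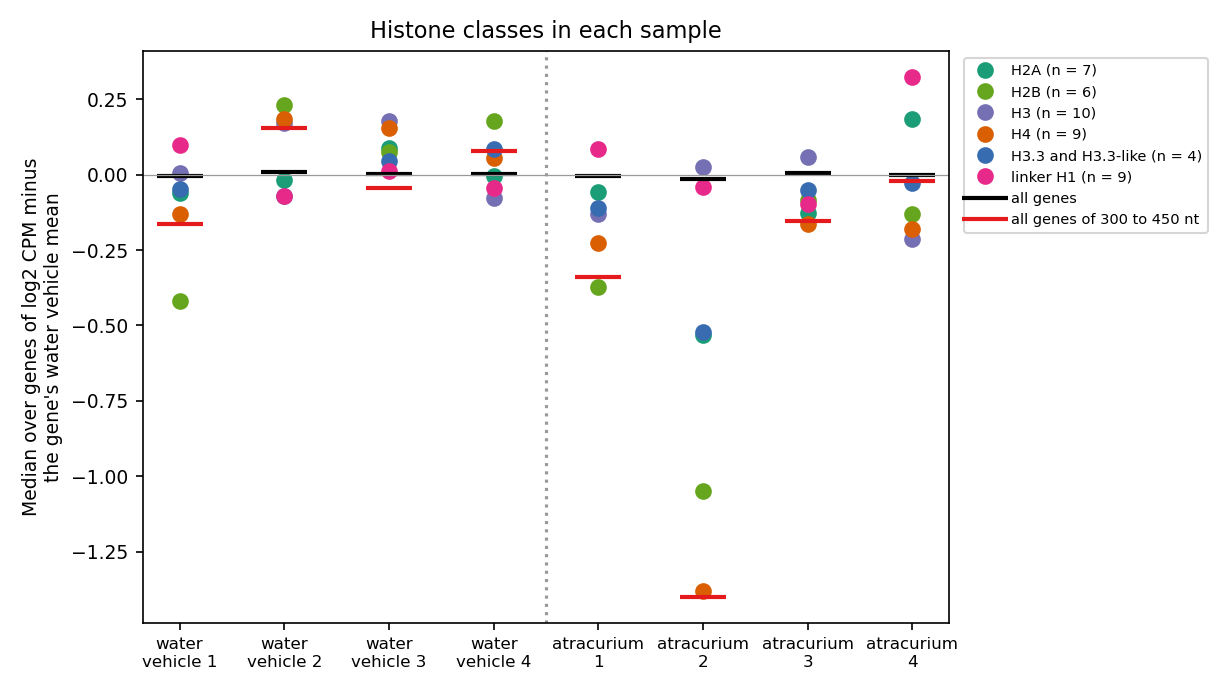
Median over the genes of each histone class of log2 CPM minus the gene's water vehicle mean, in each of the 8 samples, with black lines for all genes and red lines for the 778 genes of 300 to 450 nt. In atracurium replicate 2 the H4 median (−1.38) lies at the red line (−1.40) and the H3 and linker H1 medians lie near 0, and in atracurium replicate 4 linker H1 is highest (0.32).

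Gene length moved with these values. Over all genes in 20 bins of exonic length, the median log2 fold change rose from −0.48 in the shortest bin, with a median length of 294 nt, to 0.12 in the longest, at 4810 nt. Of the 778 genes of 300 to 450 nt, 674 were lower and 104 higher with atracurium, with a median of −0.52, and the median was −0.19 without atracurium replicate 2, which was the lowest sample for 69.3% of these genes. All 8 single-exon H4 genes are 312 nt long, the single-exon H2B genes 372 nt, the single-exon H2A genes 384 nt and the H3 genes 411 nt. The H4 and H2B medians of −0.42 and −0.47 were thus near that of all genes of similar length, while the H3 median of −0.07 and the H2A median of −0.09 were nearer 0. The 1892 genes of 800 to 1000 nt, the range of most linker H1 genes, had a median of −0.08, against 0.10 for linker H1.

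When the trend with exonic length was removed in each sample, 10 members were lower and 39 higher and the median over the members was 0.17, against 0.00 over all genes. The class medians became 0.05 for H4, −0.02 for H2B, 0.26 for H2A, 0.35 for H3, 0.09 for the H3.3 type and 0.18 for linker H1. No member passed an unadjusted p of 0.01 on this scale. At an unadjusted p of 0.05, 3 members were lower (*his-70* at −0.70, *his-38* at −0.46 and *his-37* at −0.21) and 6 higher (*hil-3*, *hil-5*, *hil-7*, *his-47*, *his-68* and *his-72*), against 8.77% of all genes in either direction. The part of transcript length in the difference between the groups was not tested beyond this adjustment.

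**Figure D5:**
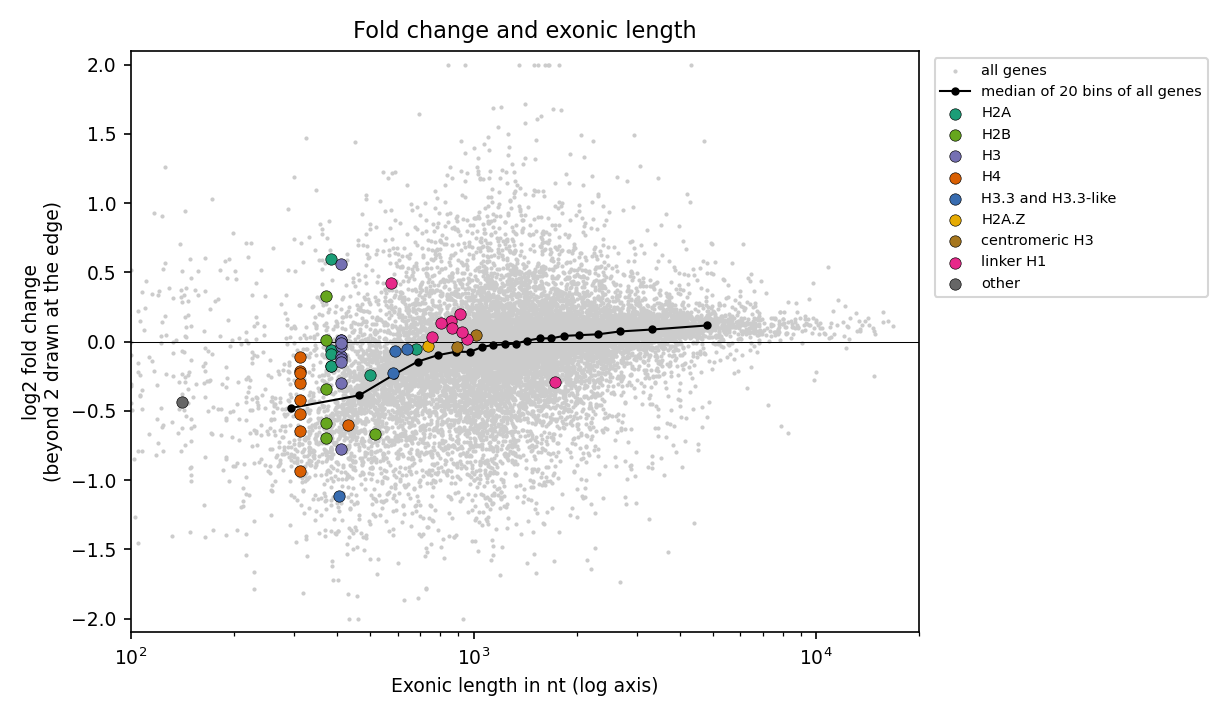
Log2 fold change against exonic length (log axis, nt) for all genes in grey, the median of 20 length bins in black and the histone classes in colour. The black line rises from −0.48 at 294 nt to 0.12 at 4810 nt, and the H4 and H2B genes scatter around it. In the values drawn 3 of 10 H3 genes and 8 of 9 linker H1 genes lie above 0. With the trend removed in each sample, which is not drawn, 9 of 10 H3 genes and 8 of 9 linker H1 genes lie above 0.

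Core histone genes of *C. elegans* often lie in divergent pairs, on opposite strands with a short shared upstream region, so that the members of a pair could be compared within each sample. Of 7 such H3 and H4 pairs, with 234 to 321 nt between the genes, the H4 gene had the lower fold change in 6, and in 7 of 7 it was further below the other atracurium samples in atracurium replicate 2 than its H3 partner. These pairs were examined after the class medians were known, and several of their H4 genes had few reads in atracurium replicate 2. The pair *his-38* (H4) and *his-40* (H3), with 234 nt between them on the X chromosome, differed most: *his-38* minus *his-40* was 1.13, 1.46, 0.42 and 1.5 log2 units in the water vehicle samples and 0.29, −0.64, 0.27 and 0.97 in the atracurium samples. The differences overlapped between the groups, with water vehicle replicate 3 and atracurium replicate 4 inside the range of the other group. The log2 fold change of *his-40* was −0.03 (SE 0.23).

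Atracurium replicate 2 had the lowest difference of all samples in each of the 7 H3 and H4 pairs, 3 of them on chromosome IV. In the pair that holds *his-18* it was level with water vehicle replicate 1 (both −2.38). *his-18* had 0 reads in both samples, so these differences do not measure it. H4 genes of other pairs had as few as 1, 6 and 9 reads in atracurium replicate 2. For *his-60* (H4) minus *his-59* (H3) the values were 0.57, 0.43, 0.29 and 0.86 in the water vehicle samples and 0.05, −0.81, 0.45 and 1.21 in the atracurium samples, and for *his-64* minus *his-63* they were −0.38, 0.27, 0.19 and 0.38 and then −0.04, −1.31, 0.29 and −0.13. In both pairs atracurium replicate 2 was the furthest from the rest. For *his-31* (H4) minus *his-32* (H3) the values were −2.59, −1.59, −1.38 and −2.22 in the water vehicle samples and −1.52, −3.21, −2.37 and −1.56 in the atracurium samples, so that water vehicle replicate 1 was low as well. With the length trend removed, the H4 gene still had the lower fold change in 6 of the 7 pairs. Of 5 H2A and H2B pairs, with 247 to 327 nt between the genes, the H2B gene had the lower fold change in 4, and it was further below the other atracurium samples in atracurium replicate 2 in 3.

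Genes that act on histones were described by their counts and medians, and none of them passed an unadjusted p of 0.01. Of 15 measured genes of 3′ end formation and the associated small RNA pathway, 13 were higher and 2 lower. The median was 0.07, and 0 passed an unadjusted p of 0.01. The stem-loop binding protein gene *cdl-1*, needed for core histone mRNA, had a log2 fold change of 0.05 (SE 0.05), and *csr-1*, an Argonaute gene that contributes to histone mRNA maturation, had 0.13 (SE 0.06, unadjusted p 0.0414). Of 25 genes for chaperones and deposition factors 23 were higher and 2 lower, with a median of 0.06, and none passed an unadjusted p of 0.01. Of 40 genes of DNA replication and S phase 30 were higher and 10 lower, with a median of 0.05 and none past the same threshold, against 1.2% of all genes higher and 1.87% lower. At an unadjusted p of 0.05 in limma-trend the 3 lists had 2, 3 and 4 genes higher and 0, 0 and 1 lower. Among all genes 11.5% passed that threshold in either direction. Over all genes 8355 were higher and 9166 lower. The median exonic lengths of the 3 lists were 3414, 1830 and 1826 nt, and the bins of all genes at 3324 and 1839 nt had median log2 fold changes of 0.09 and 0.04. Among the replication genes *pcn-1*, the sliding clamp gene PCNA, stood at 0.08 (SE 0.07) and *rnr-1*, the large subunit of ribonucleotide reductase, at 0.13 (SE 0.07).

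Markers of the cell types in whole worms were compared as well. Of 20 germ line genes 1 (*pgl-3*) was higher at an unadjusted p of 0.01, and of 28 oocyte, eggshell and early embryo genes 0 passed, against 1.2% of all genes higher and 1.87% lower, with medians of 0.06 and 0.08. Of 25 sperm genes 8 were lower at that threshold and 0 higher, with a median of −0.49. Their summed level was 124.3 to 141.7 CPM in the water vehicle samples and 93.6 to 117 CPM in the atracurium samples, which did not overlap. These genes had 330 to 6267 nt of exon, with a median of 752 nt. The bin of all genes at 785 nt had a median log2 fold change of −0.10. Of the 778 genes of 300 to 450 nt, 50 were lower at that threshold, with a median of −0.52. The part of length in the sperm values was not tested. The sperm-specific H2A variant gene *htas-1* had a log2 fold change of −0.57 (SE 0.27, unadjusted p 0.0540), with groups that overlapped. The sperm genes with the smallest p were *smz-2* at −0.65, *msp-33* at −0.83, *msp-45* at −0.82 and *msp-56* at −0.77. The part of sperm RNA in the value of *his-70* or of any other member was not tested. Of the somatic lists, 1 of 14 intestine genes (*cpr-1*), 2 of 12 body wall muscle genes (*myo-3* and *unc-54*) and 2 of 14 neuronal genes (*egl-3* and *ida-1*) were higher at an unadjusted p of 0.01, and 0 of 12 hypodermis and cuticle genes passed, against the same shares of all genes. Over these somatic lists, 13 genes were higher and 1 lower for intestine, and 8 higher and 4 lower for muscle. For neurons 12 were higher and 2 lower, and for hypodermis and cuticle 4 were higher and 8 lower. The medians were 0.16, 0.07, 0.16 and −0.10 in that order. Genes of all 7 cell type lists were detected in these whole adult worms.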

How the data were processed

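RNA sequencing of 4 atracurium and 4 water vehicle samples was used, grouped by the treatment in their labels. The authors trimmed reads with Trimmomatic 0.32, aligned them to WBcel235 (Ensembl release 91) with HISAT2 2.1.0, counted them by strand with HTSeq 0.11.0 at default settings, and dropped genes unless 3 samples or more had over 2 counts. The deposited values are the authors' log2 CPM, made with edgeR 3.26.8, scaled by the trimmed mean of M-values with a prior count, under column names that say CPM. The prior averaged 2 reads, so a gene without reads has −4.15 in every sample, and fold changes of low genes are understated. Whole reads were recovered from the deposited log2 values (100% within 0.1 of a whole number) and gave the depth and the exact binomial intervals, which cover counting error only.

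The log2 CPM were fitted with limma-trend (limma 3.58.1 in R 4.3.3), two-sided, with Benjamini-Hochberg adjustment over the 17521 genes. The authors used limma-voom, which was run as an alternative on the recovered reads. Coordinates and exonic lengths came from the Ensembl release 115 annotation of WBcel235, matched by gene identifier (17493 genes, all 49 members), while gene names came from the deposited table. CPM per kilobase divides CPM by exonic length.

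The members and the gene lists were chosen with earlier results of these data known. Named members were every variant and linker gene, the 2 most abundant and the highest and lowest fold change of each core class, and members with an unadjusted p under 0.01; *his-57*, *his-40*, *his-31*, *his-63* and *his-64* were singled out later. List genes were named at an unadjusted p under 0.01, up to 4 a list, besides *cdl-1*, *csr-1*, *pcn-1*, *rnr-1* and *htas-1*. The methods describe samples of about 1000 worms grown per group, and p-values measure only the spread between these samples, which may be technical.

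Alternatives were no mean-variance trend, robust moderation, sample weights, quantile normalization, a common median, a filter keeping genes above 0 log2 CPM in 4 or more samples (stricter filter), a prior of 0.5 reads, the replicate number as a block, each sample left out, atracurium replicates 2 and 4 left out, removal of the trend with exonic length (lowess, span 0.3), and reads thinned to the shallowest sample. No pair of replicates agreed within sampling noise. The fitting script was also run on simulated reads, and the outcome is not given here.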

Additional observations from a re-analysis of the deposited data

Results flagged for a closer look

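In *his-62*, an H2B gene, water vehicle replicate 1 had a log2 CPM of 1.69, while the other 3 water vehicle samples lay between 2.22 and 2.33. Its gap to the nearest of them, relative to the range of the group, exceeded Dixon's 95% critical value for 4 samples. It was the only one of 74 groups of 4 samples to do so, and chance alone flags about 1 in 20 groups.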

How the results depend on the processing

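The count of 0 members at an adjusted p of 0.05 was 0 under all 20 alternatives. The count of 2 members at an unadjusted p of 0.01 became 1 without the mean-variance trend (2.66% of all genes), with robust moderation (3.28%), with a prior count of 0.5 (2.96%), with thinned reads (2.95%) and with the replicate block (2.43%), and 0 with the stricter filter (3.43%), in which 31 members were tested, and with the length trend removed (2.52%). With single samples left out it ran from 1 to 3 (1.75% to 5.04% of all genes). The count of 1 member with groups apart became 2 with quantile normalization (6.66% of all genes), with thinned reads (6.77%) and with the length trend removed (5.04%), 0 with the stricter filter (8.11%), which left out *his-70*, and 4 without atracurium replicates 2 and 4 (24.2%). With single samples left out it ran from 1 to 8 (9.38% to 16.2% of all genes). The median log2 fold change of −0.10 became 0.17 with the length trend removed, and *his-68* and *his-72* turned to 0.26 and 0.15 there, while the other alternatives left the median below 0. Of the 32 named members 15 kept their sign in every alternative and 17 changed it in at least one. Deviations of same-numbered samples correlated at −0.06 to 0.04, so no shared effect of replicate number was seen. These values cannot tell whether the samples were prepared in matched batches. Apart from the length adjustment and the filter, the cause of these changes was not tested. Depth limits the low genes: 21 members, 19 of them single-exon, had under 100 reads in every sample, and differences in them smaller than their intervals were not detectable.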
